A study of Homo sapiens with 9 samples.

Results

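The regions described here are 6598 genomic intervals at which NKX2-1 was called as bound in the lung adenocarcinoma lines NCI-H3122 and NCI-H2087, with no call in the third line, NCI-H1819. Overlapping NKX2-1 peaks of 4 lists were merged on chromosomes 1 to 22 and X, with 1 shared base as the minimum overlap, which gave 59679 merged regions. The 6598 members were chosen by the peak calls themselves: each held a peak of H3122 replicate 2 and a peak of H2087, and none of H1819. They made up 13.8% (95% Wilson interval 13.5 to 14.1) of the 47751 merged regions with an H3122 replicate 2 peak, and 47.1% (46.3 to 48.0) of the 13997 merged regions with an H2087 peak. Presence in H3122 and H2087, absence in H1819 and the scores of the peaks that met the rule are therefore descriptions and not findings. The size of the set rested on H3122 replicate 2: without that list, 1224 merged regions would meet the rule through replicate 1.

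The study mapped NKX2-1 by chromatin immunoprecipitation and sequencing (ChIP-seq) in 3 established human lung adenocarcinoma cell lines grown in serum-supplemented RPMI1640, after formaldehyde crosslinking. NKX2-1 was precipitated with antibody BL4000 (Bethyl Laboratories) in H3122 in 2 libraries, in H2087 in 1 and in H1819 in 1, and FOXA1 with antibody ab23738 (Abcam) in H3122 in 1 library. There were 4 input libraries from the same lines without an antibody, and no values of their own were analysed here. No line carried a treatment or an engineered allele in the labels, and H2087 and H1819 each entered with 1 NKX2-1 library, so a difference between lines cannot be told apart from a difference between libraries. The labels do not say whether the H3122 libraries came from separate cultures, and the spread between them may be technical.

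NKX2-1 binds DNA through a homeodomain and sets the identity of lung and thyroid epithelium. In the mature lung it drives genes of alveolar type 2 and airway secretory cells, the surfactant proteins among them. Its gene lies at 14q13.3, and some lung adenocarcinomas carry extra copies of it and depend on it as a lineage-survival gene. FOXA1 is a forkhead factor that can bind its sites in closed chromatin and is known to share many enhancers with other factors of endodermal epithelia. A factor present in several cell lines commonly binds a different set of sites in each, since chromatin and partner factors differ.

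The lists were of unequal length and cut-off. H3122 replicate 2 had 48071 peaks, H3122 replicate 1 had 7469, H2087 had 14441, H1819 had 13486 and FOXA1 in H3122 had 42437. Each peak carried the authors' score, which is read here as 10 times −log10 of the peak caller's p-value, is no measure of occupancy, and tops out near 3100. The lowest score was 50 in replicate 1 and 60 or just above it in the 4 other lists, and read depth is unknown because the files hold no read counts. All shares below are shares of regions with Wilson or Newcombe intervals, which cover counting error only. All p-values below are over regions of these lists, not over replicate cultures, and neighbouring regions are not independent.

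Within the values that chose them, the members were of middling score. The median score was 172.0 in H2087 (interquartile range 97.1 to 352.9) and 185.5 in H3122 replicate 2 (109.5 to 355.2). These medians stood at the 55.4th percentile of the H2087 list and the 62.7th percentile of the replicate 2 list. The spread among members was wide: 39 reached 3100 or more in H2087, 12 did so in replicate 2, and 2 did so in both. Across the 6598 members, Spearman's rho between the H2087 and replicate 2 scores was 0.36, against 0.43 across the 2742 regions called in all 3 lines. These points share the 2 libraries.

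Overlap of the H2087 and replicate 2 peaks was largely fixed by the merging and the rule, so their positions are given as a description. A single peak of each list made up 6207 of the 6598 regions. The median distance between the midpoints of the H2087 and the replicate 2 peak was 85 bp (interquartile range 39 to 163 bp), with median peak widths of 646 bp in H2087 and 755 bp in replicate 2. The H2087 peak lay wholly inside the replicate 2 peak at 2620 members (39.7%), and the replicate 2 peak wholly inside the H2087 peak at 1504 (22.8%). Only 2 members joined best-scoring peaks that did not overlap. The members had a median width of 892 bp, against 774 bp for the 4256 regions called in H3122 replicate 2 and H1819 without H2087, 1064.5 bp for regions called in all 3 lines, and 619 bp for the 34155 regions called in replicate 2 and in neither other line.

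The rule leaves out regions with an H1819 peak, and the nearest one lay at varied distance. Its median distance was 52.5 kb from a member and 79.5 kb from a region called in replicate 2 and in neither other line. For the members the values were spread widely (interquartile range 17.6 to 135.2 kb), with 28 bp as the smallest, and 196 members (2.97%) had one within 1 kb. A missing call is not the same as no binding, because a peak under the score cut-off of H1819 is not listed. The score limits of the rule fell as follows. The lowest replicate 2 scores inside it were 60 at 19q13.33 (chr19:53841166-53841861, H2087 score 66.1) and 60.05 at 1p36.23 (chr1:7943766-7944755, H2087 score 192.0). The lowest H2087 score, 60.02, stood at 1q32.1 (chr1:203357457-203358371) and 1q44 (chr1:245161614-245162439), with replicate 2 scores of 61.5 and 135.3. Just outside were regions with the weakest H1819 peaks, with H1819 scores of 60.01 at 12q13.13 (chr12:48791657-48792523), 60.05 at 1p36.21 (chr1:12600559-12602038) and 60.06 at 12p13.31 (chr12:6743384-6744303). Under a score of 70 lay 658 members in H2087, 395 members in replicate 2 and, among the regions called in all 3 lines, 320 in H1819.

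The strongest members were named by the mean of their score ranks in the H2087 and replicate 2 lists, and positions are on build hg18. The highest scores were 3208 in the H2087 list and 3217 in the replicate 2 list. Several top members shared a score of 3100 in H2087, so ranks there separate them little. There were 2 members tied at the highest mean rank, both with a score of 3100 in each of these lists. One lay at 13q32.1 (chr13:94985049-94986537), with scores of 3100 in H2087, 3100 in replicate 2, 819.7 in replicate 1 and 2624 for FOXA1. The other, at 18q22.3 (chr18:71249169-71251010), had 3100 in H2087, 3100 in replicate 2, 580.6 in replicate 1 and 292.7 for FOXA1. Their FOXA1 scores were far apart. The member at 2p16.1 (chr2:55865689-55867239) had 3100 in H2087, 3089.5 in replicate 2, 170.7 in replicate 1 and 306.6 for FOXA1. At 5q22.3 (chr5:114823458-114826060) the scores were 2988 in H2087, 3153 in replicate 2, 222.7 in replicate 1 and 383.0 for FOXA1. Its width of 2603 bp was close to that of the member at 5q33.2 (chr5:153556974-153559569), 2596 bp, where the scores were 3100 in H2087, 2403 in replicate 2, 366.8 in replicate 1 and 2640 for FOXA1. A further member of 5q33.2 (chr5:154188861-154190543) had 3100 in H2087, 2366 in replicate 2, 571.7 in replicate 1 and 1057 for FOXA1. The other top members were at 3p14.2 (chr3:58834692-58836393), 7p14.3 (chr7:34024994-34026763), 11q21 (chr11:94252347-94253817) and 12q21.33 (chr12:89008657-89009922). Among these 4, the H2087 scores ran from 2983 to 3208, the replicate 2 scores from 1974.8 to 3019 and the replicate 1 scores from 84.1 to 352.6. All of the 10 had a replicate 1 peak, and 9 had a FOXA1 peak, with none at 12q21.33. They were picked by score, and both kinds of peak were common at high scores. Shares by decile are given over deciles of replicate 2 score cut on all 47751 regions with a replicate 2 peak. In the highest decile, 55.2% of members had a replicate 1 peak and 81.1% a FOXA1 peak.

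**Figure D1:**
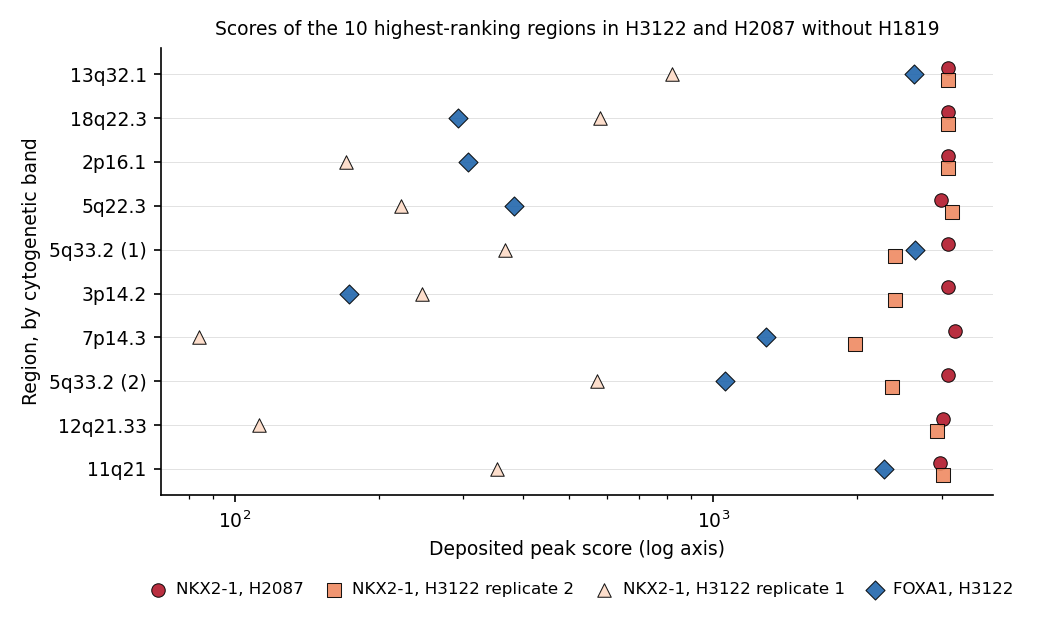
Authors' peak scores (horizontal axis, score units on a log axis) of the 10 members with the highest mean score rank in H2087 and H3122 replicate 2, one member per line, with a marker for each list. H2087 and replicate 2 scores lie between 1974.8 and 3208, replicate 1 scores between 84.1 and 819.7, and FOXA1 scores spread from 172.9 to 2640 with none at 12q21.33.

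High scores in both lines also occurred without FOXA1. The highest such members were the one at 12q21.33, with scores of 3018 in H2087 and 2929 in replicate 2, and one at 2q11.2 (chr2:102065203-102066605), with 3100 in H2087 and 1988 in replicate 2. They were followed by members at 1q42.12 (chr1:222877148-222879092; 2404 in H2087 and 1506 in replicate 2), 4q28.1 (chr4:127990521-127991735; 2029 and 1603) and 17p13.3 (chr17:960414-962067; 3100 and 929.5). Of these, the one at 1q42.12 had no replicate 1 peak.

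Some members ranked high in one line and at the cut-off in the other. The largest rank gaps towards H2087 were at 3q23 (chr3:142532972-142534371), with scores of 1265 in H2087 and 61.5 in replicate 2, and at 2 places in 5q32 (chr5:146091490-146092332, 896.8 and 60.15; chr5:146748028-146749021, 833.0 and 60.4). None of these had a replicate 1 or FOXA1 peak. The largest gaps towards H3122 were at 14q22.3 (chr14:54834092-54835293), with 60.1 in H2087 and 1416 in replicate 2, at 7p21.3 (chr7:7867140-7867906), with 61.0 and 1504, and at 5q35.2 (chr5:173499959-173500673), with 61.0 and 1424. All 3 of these had a replicate 1 peak (86.1, 107.0 and 163.2) and a FOXA1 peak (481.8, 3106 and 71.0). The regions on both sides were picked for these gaps, which are given as a description. Over all members, a replicate 1 peak was present at 5.28% in the lowest decile of replicate 2 score and 55.2% in the highest. A FOXA1 peak was present at 21.7% and 81.1%, so the counts above go with the replicate 2 scores picked.

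A replicate 1 peak of H3122, which the rule did not use to keep or drop a region, was present at 1179 of the 6598 members, 17.9% (17.0 to 18.8). The share was 12.5% over all regions with a replicate 2 peak and 12.3% over all merged regions. The members stood 9.35 points above the regions called in replicate 2 and in neither other line, at 8.52% (interval of the difference 8.39 to 10.3, Fisher's exact test, adjusted p = 5.18e-102). Of the 360 members in the lowest decile of replicate 2 score over all regions with that peak, 5.28% had a replicate 1 peak. The share was 55.2% of the 935 members in the highest. Within deciles of replicate 2 score the difference was 3.95 points (3.06 to 4.85). Regions called in all 3 lines had a share of 35.1%, and the difference, members minus these regions, was −17.2 points (adjusted p = 1.99e-68, Fisher's exact test), or −7.38 points within deciles. Against the regions shared with H1819 in place of H2087, of which 21.6% had a replicate 1 peak, the difference was −3.75 points (−5.30 to −2.21, adjusted p = 2.06e-06, Fisher's exact test). Within deciles of replicate 2 score that difference turned to 0.256 points higher in the members (−1.08 to 1.59), so it did not hold once replicate 2 scores were matched.

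FOXA1 was called at fewer of the members than of the regions shared with H1819. A FOXA1 peak of H3122 overlapped 2955 of the 6598 members, 44.8% (43.6 to 46.0), against 48.0% over all regions with a replicate 2 peak and 39.7% over all merged regions. Regions shared with H1819 in place of H2087 held one at 54.3%. The difference, members minus these regions, was −9.47 points (−11.4 to −7.54, Fisher's exact test, adjusted p = 1.24e-21), and −5.69 points (−7.46 to −3.93) within deciles of replicate 2 score. FOXA1 was mapped in H3122 alone, so all of these shares concern FOXA1 in that line.

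Against regions in replicate 2 and neither other line, 48.1% of which held a FOXA1 peak, the difference was −3.28 points (−4.59 to −1.97, Fisher's exact test, adjusted p = 1.48e-06). Within deciles of replicate 2 score it was −12.5 points (−13.7 to −11.3). The difference was also larger within deciles of region width, at −13.3 points. Its direction turned with replicate 1 in place of replicate 2. There 56.9% of the 1224 regions meeting the rule held FOXA1, against 44.9% of the 4284 called in H3122 alone. This was a difference of 12.0 points in the opposite direction (Fisher's exact test, p = 1.24e-13). With a peak required in both replicates, the shares were 59.6% of 1179 and 64.0% of 2911, a difference of −4.34 points (−7.65 to −1.06, Fisher's exact test, p = 0.0102). Over all merged regions, 51.9% of the 7333 with a replicate 1 peak held FOXA1. Of the 5972 regions with a peak of both replicates, 62.6% held it. The part of replicate 1 peaks without a replicate 2 peak in the turn of direction was not tested. Against regions called in all 3 lines, 44.5% of which held FOXA1, the difference was 0.33 points (−1.89 to 2.54, Fisher's exact test, adjusted p = 0.836). Regions called in all 3 lines had higher replicate 2 scores, with a median of 316.8 against 185.5 in the members. Within deciles of that score the members' FOXA1 share was 11.5 points higher (9.46 to 13.6).

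By decile of replicate 2 score, the FOXA1 share of the members was 21.7, 18.0, 27.2, 26.3, 30.5, 34.2, 39.7, 51.6, 63.6 and 81.1%, low to high. It was below that of regions shared with H1819 in 9 of the 10 deciles, with the lowest decile as the exception (21.7% in the members, 20.1% in those regions). It was below that of regions called in neither other line in all 10, and above that of regions called in all 3 lines in 9 of the 10. The exception there was the second decile, with 18.0% in the members and 27.7% in all 3 lines. In the highest decile the shares were 81.1% in the members, 86.6% in regions shared with H1819, 74.2% in all 3 lines and 87.6% in neither other line.

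**Figure D2:**
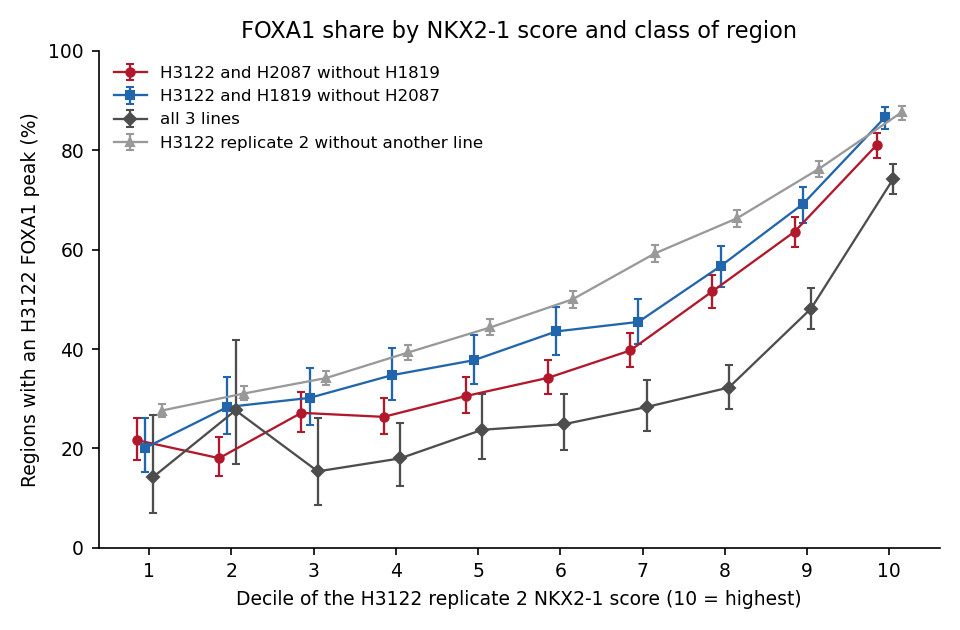
Share of regions with a FOXA1 peak (vertical axis, percent, from 0) by decile of H3122 replicate 2 score (horizontal axis, low to high) in the members and the 3 classes they are compared with; points carry 95% Wilson intervals. Deciles were cut over all regions with a replicate 2 peak. The members climb to 81.1% in the highest decile and lie between the regions called in all 3 lines (74.2%) and the regions called in neither other line (87.6%) there.

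Among members, FOXA1 sharing followed the score in H3122, the line in which FOXA1 was mapped, more closely than the score in H2087. Over quintiles of the members' replicate 2 score, a FOXA1 peak was present at 22.7, 29.7, 39.1, 55.4 and 77.0%. Over quintiles of their H2087 score the shares were 35.7, 38.7, 41.8, 47.5 and 60.3%. Members above the median replicate 2 score held FOXA1 at 61.2%, against 28.3% of those below, a difference of 32.9 points (30.6 to 35.1, Fisher's exact test, adjusted p = 1.46e-160). Matched on H2087 score the difference was 30.3 points (27.9 to 32.7). Members above the median H2087 score held FOXA1 at 51.9%, against 37.7% of those below, a difference of 14.2 points (11.8 to 16.5, Fisher's exact test, adjusted p = 2.18e-30). Matched on replicate 2 score it was 2.20 points (−0.14 to 4.54), an interval that includes 0. These splits among members were chosen after the data had been seen.

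**Figure D3:**
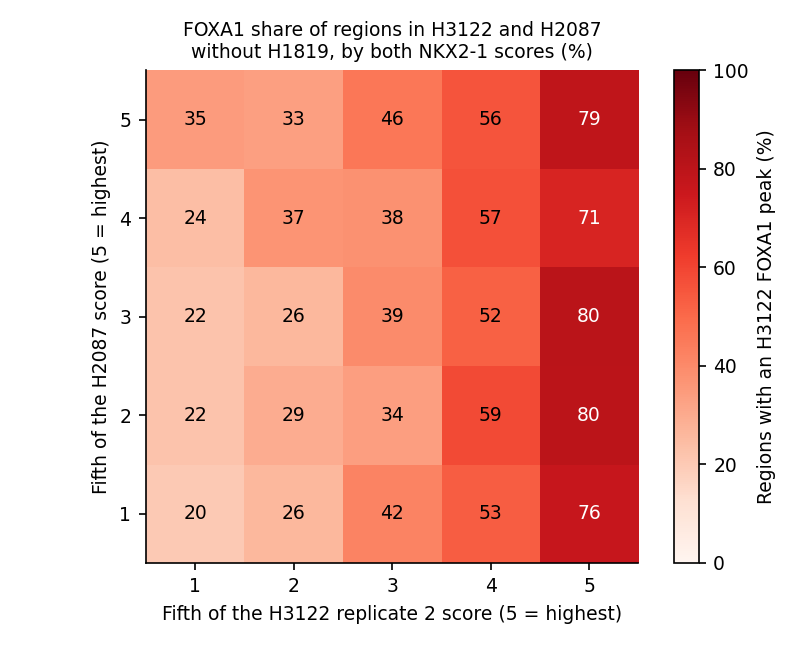
Share of members with a FOXA1 peak (colour, percent) in each combination of quintiles of the members' H3122 replicate 2 score and H2087 score. The share is 78.7% where both scores are in the highest quintile (578 members), 76.3% where only the replicate 2 score is (lowest H2087 quintile, 118 members), 34.7% where only the H2087 score is (lowest replicate 2 quintile, 98 members) and 20.2% where both are in the lowest (420 members).

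A FOXA1 peak was counted only where it overlapped the region, so a short distance to the NKX2-1 peaks was largely fixed in advance. At members with FOXA1, the nearest FOXA1 midpoint was a median of 87 bp from the replicate 2 midpoint and 105 bp from the H2087 midpoint. The median distance to replicate 2 was 75 bp in regions shared with H1819 and 71 bp in regions called in neither other line. Median region widths of these classes ran in the same order, at 892, 774 and 619 bp, and the distances were not adjusted for width. The FOXA1 score was 204.9 at the median of the 2955 members, against 251.2 in regions shared with H1819, 239.0 in all 3 lines and 207.7 in neither other line. A FOXA1 score in the top quartile of its list, 294.0 or more, was found at 37.2% of members with FOXA1, against 45.6% of such regions shared with H1819. The difference was −8.38 points (−11.0 to −5.70, Fisher's exact test, adjusted p = 1.64e-09), and −5.79 points within deciles of replicate 2 score. Among such regions called in all 3 lines the share was 44.1%, a difference of −6.91 points (Fisher's exact test, adjusted p = 4.75e-05) that turned to 2.23 points within deciles (−1.01 to 5.48). Among those called in neither other line it was 38.0%, a difference of −0.739 points (−2.62 to 1.17, Fisher's exact test, adjusted p = 0.524), and of −8.61 points within deciles. Across the 2955 members, Spearman's rho with the FOXA1 score was 0.32 for the replicate 2 score and 0.11 for the H2087 score. The replicate 2 and FOXA1 libraries came from the same line, which these points share.

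The members lay more often in light chromosome bands. Giemsa-light bands are known as gene-rich and early replicating, and dark bands as gene-poor. A band was counted as light where its hg18 stain was gneg or gpos25, the palest classes. Of the members, 4570 (69.3%, 68.1 to 70.4) had their midpoint in such a band, against 58.4% over all regions with a replicate 2 peak and 59.7% over all merged regions. The share was 58.8% in regions shared with H1819 in place of H2087, a difference of 10.5 points (8.63 to 12.3, Fisher's exact test, adjusted p = 1.91e-28). It was 55.4% in regions called in neither other line, a difference of 13.8 points (12.6 to 15.1, Fisher's exact test, adjusted p = 3.31e-98). Within deciles of replicate 2 score these differences were 9.53 and 15.5 points, and within chromosomes 9.45 and 12.6 points. With replicate 1 in place of replicate 2, the difference from regions called in neither other line was 8.25 points. Regions called in all 3 lines had 69.4% in light bands, and the difference was −0.175 points (−2.21 to 1.89, Fisher's exact test, adjusted p = 0.883), or −2.35 points (−4.47 to −0.235) within deciles.

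The share followed the H2087 list as a whole. All merged regions with an H2087 peak had 70.5% in light bands and those called in H2087 alone had 72.9%, while all with an H1819 peak had 60.8%. By stain, the density of members per Mb relative to their genome mean was 1.37 in gneg, 1.59 in gpos25, 1.05 in gpos50, 0.72 in gpos75 and 0.401 in gpos100, the darkest class. In gpos100 lay 6.64% of members, against 13.1% of regions shared with H1819. Copy number and read depth of the lines were not measured here, and their part in these differences was not tested.

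Members with a FOXA1 peak lay in light bands less often than members without one, at 64.9% against 72.8%. The difference was −7.89 points (−10.1 to −5.64, Fisher's exact test, adjusted p = 1.10e-11), and −5.35 points within deciles of replicate 2 score. The excess of light bands over regions shared with H1819 was found with and without FOXA1. It was 11.4 points (8.71 to 14.0) among regions with FOXA1 and 7.77 points (5.22 to 10.3) among those without. The test of the difference between these, in a logistic model, gave a ratio of odds ratios of 1.12 (0.948 to 1.31), an interval that includes 1.

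**Figure D4:**
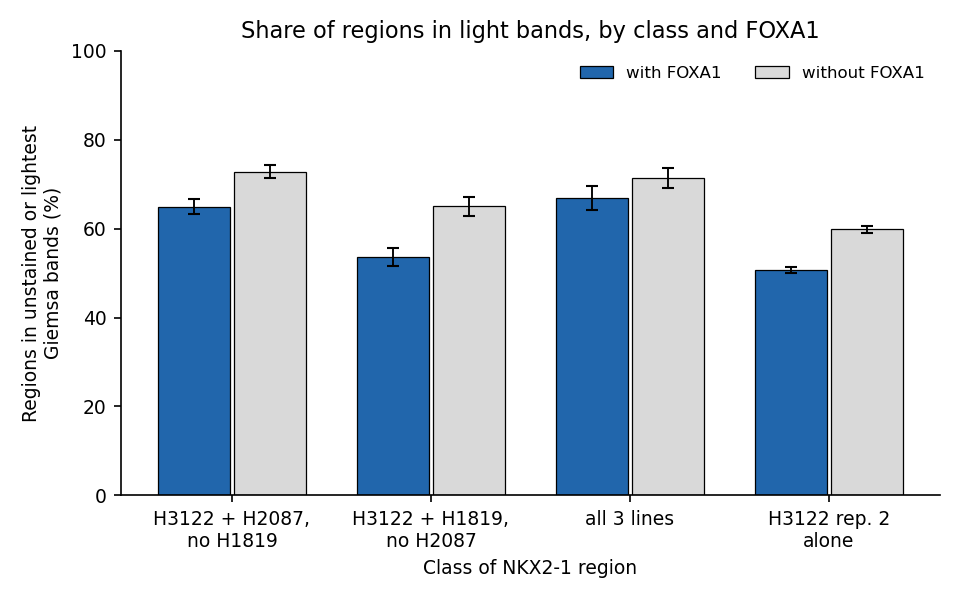
Share of regions in Giemsa-light bands of hg18 (vertical axis, percent, from 0) with and without a FOXA1 peak, in the members and the 3 classes they are compared with; error bars are 95% Wilson intervals. With FOXA1 the share was 64.9% in the members, 53.5% in regions shared with H1819, 66.9% in all 3 lines and 50.7% in neither other line; without FOXA1 it was 72.8, 65.0, 71.4 and 59.8%.

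Chromosomes differed in how their regions split between H2087 and H1819. Of the members and the regions shared with H1819 combined, 60.8% were members. This share departed from that of the other chromosomes on 11 of 23 (47.8%, Fisher's exact test, adjusted p under 0.05). It was higher on 6: chromosomes 16 (74.5%, Fisher's exact test, adjusted p = 4.69e-06), 17 (71.8%), 22 (71.4%), 20 (68.2%), 19 (67.7%) and 1 (64.8%). It was lower on 5: chromosomes 18 (51.0%), 13 (51.5%), 4 (52.6%, Fisher's exact test, adjusted p = 4.07e-04), 3 (53.9%) and 8 (54.0%). The full peak lists differed in the same places, since H2087 peaks were 67.1% of the H2087 and H1819 peaks on chromosome 16 and 40.9% on chromosome 18, against 51.7% over all. The split between members and regions shared with H1819 therefore cannot be told apart from this difference between the full lists, and copy number was not measured here. These comparisons by chromosome, and those by band, were chosen after the data had been seen.

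**Figure D5:**
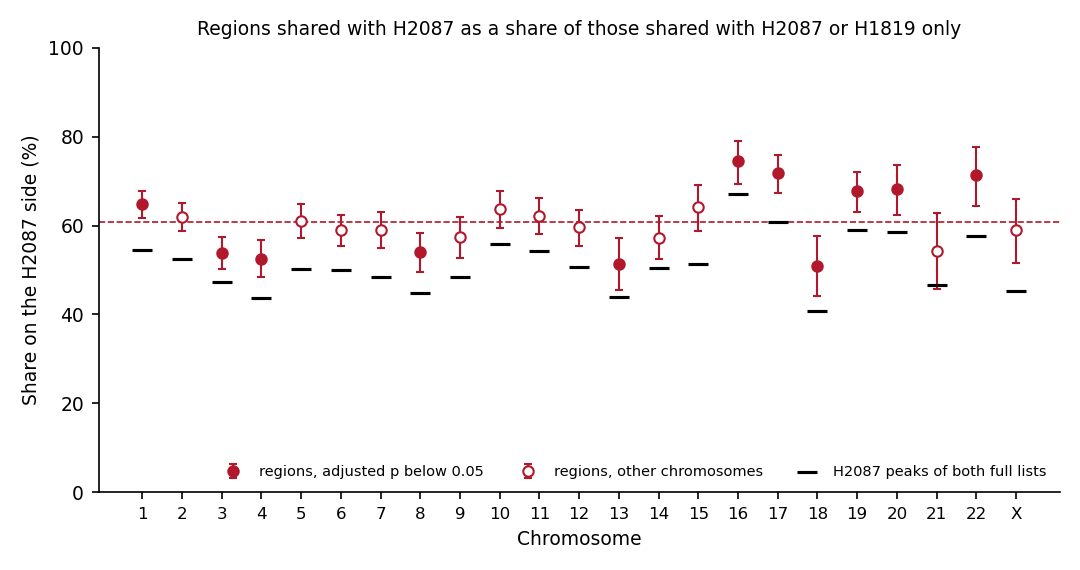
Members as a percent of members plus regions shared with H1819, by chromosome (circles with 95% Wilson intervals, filled where the adjusted p was under 0.05; dashed line, all chromosomes), beside the percent of H2087 peaks among all H2087 and H1819 peaks of that chromosome (black bars). Both are highest on chromosome 16 (74.5% and 67.1%) and lowest on chromosome 18 (51.0% and 40.9%).

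The FOXA1 share of members also varied by chromosome, and it departed from that of the other chromosomes on 7 of 23 (30.4%, Fisher's exact test, adjusted p under 0.05). It was higher on chromosomes 13 (56.0%), 4 (52.4%) and 2 (50.1%), and lower on chromosomes 19 (22.3%), 22 (27.2%), 16 (34.3%) and 17 (37.0%). The median replicate 2 score of members was 317.9 on chromosome 13 and 139.0 on chromosome 19. Within deciles of that score, the interval of the difference from the other chromosomes included 0 on 4 of the 7. These were chromosome 13, where the difference was 11.5 points and the matched one 1.96 (−5.24 to 9.16), chromosome 2 (5.79 points, matched 2.08, −1.82 to 5.99), chromosome 16 (−10.9 points, matched −5.30, −10.7 to 0.124) and chromosome 17 (−8.20 points, matched −5.07, −10.3 to 0.154). It did not include 0 on chromosome 4, where the difference was 7.93 points and the matched one 7.16 (1.79 to 12.5), or on chromosome 22 (−17.9 points, matched −11.3, −18.4 to −4.13). The same held on chromosome 19, where 98.6% of members lay in light bands and the difference was −23.5 points (adjusted p = 1.47e-14, Fisher's exact test), or −16.5 points matched (−21.2 to −11.8).

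Members were spread over the genome, at 2.18 per Mb, in 716 of 851 bands and in 1835 windows of 1 Mb. The bands with most members were 19p13.3 with 52, 19q13.32 with 47, 11q13.1 with 44, and 2p14 and 6p21.1 with 41 each. By length, 19q13.32 held 12.4 per Mb, 5.67 times the mean. Of 204 bands with at least 20 regions, 14 (6.86%) differed in their split from the rest (Fisher's exact test, adjusted p under 0.05), 9 towards members and 5 towards regions shared with H1819. At 16p13.3 there were 40 members and 2 regions shared with H1819 (adjusted p = 1.08e-04, Fisher's exact test). At 6p22.3 there were 16 members and 40 regions shared with H1819 (adjusted p = 1.38e-04, Fisher's exact test). The other 8 bands with more members were 1p31.3, 1p36.11, 2p23.2, 2q11.2, 6p21.1, 8q24.13, 8q24.3 and 9q34.11, and the other 4 with fewer were 3q26.31, 5q23.2, 7q21.11 and 13q31.1.

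The most crowded window lay on chromosome 22 between 35 and 36 Mb, with 18 members, none of the regions shared with H1819 and 6 regions called in all 3 lines. H2087 scores there ran from 61.0 to 1883.9 and replicate 2 scores from 63.0 to 739.6. The strongest of them in H2087 (chr22:35272169-35273890, 1883.9) had 462.9 in replicate 2 and no FOXA1 peak. FOXA1 was present at 4 of the 18, at 27.2% over the members of chromosome 22 and at 44.8% over all members.

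In 14q13.3, the band of the NKX2-1 gene, there were 8 members, 8 regions shared with H1819, 1 called in all 3 lines and 33 called in neither other line. The 8 members had H2087 scores of 64.4 to 723.9 and replicate 2 scores of 67.7 to 641.0, and 6 of them held a FOXA1 peak. Over all members the FOXA1 share was 44.8% and rose with replicate 2 score, and no test of FOXA1 in this band was run. The strongest in H2087 was chr14:36600477-36601873, with 723.9 in H2087 and 535.4 in replicate 2, and the strongest in replicate 2 was chr14:35755497-35757366, with 438.0 in H2087, 641.0 in replicate 2 and 90.8 in replicate 1.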

How the data were processed

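The deposited files were peak lists in BED format on hg18, 1 per precipitated library, and the score of each peak was set by the authors. Bowtie and MACS 1.4.0 are named in the submitters' processing notes. The scale of the score (10 times −log10 p) was read from its range and is not given in the sources used here. Inputs entered no value computed here. Peaks off chromosomes 1 to 22 and X were left out. Peaks were merged at 1 bp overlap in Python 3.11.15 (numpy 2.4.6, pandas 2.3.3), and a region took the highest score of its peaks in each list. Shares have Wilson intervals, and differences have Newcombe intervals and two-sided Fisher's exact tests, adjusted by the Benjamini-Hochberg method over 16 differences of classes, over 23 chromosomes or over 204 bands (scipy 1.17.1). Matched differences were weighted over 10 deciles of score as in a Cochran-Mantel-Haenszel test, in code written with numpy and scipy. For differences between classes these deciles were cut over both classes compared. For splits of the members by FOXA1 or by score they were cut over the members. Shares by decile used deciles over all regions with a replicate 2 peak. The logistic model was fitted with statsmodels 0.14.6. Chromosome lengths and bands of hg18 came from GenomeInfoDb 1.38.1 and circlize 0.4.16 in R 4.3.3, and figures from matplotlib 3.10.9. The code for class sizes, FOXA1 shares, their difference and a chromosome shift was checked on simulated data. Simulated scores did not depend on class or on FOXA1, so that check could not show how matching performs where they do. The light band, band and logistic tests were not checked in this way. Genes, promoters and motifs need an hg18 genome and annotation and were not analysed here. The named regions are the 10 highest by mean score rank, the 5 highest with replicate 1 and FOXA1 and the 5 highest without FOXA1, the 3 largest rank gaps each way, those nearest the score limits, and the bands and windows with most members. The strongest regions of the most crowded window and of 14q13.3 were named after their values were seen. The members and lists were chosen with earlier results of these data known. Alternatives are given in the closing section.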

Additional observations from a re-analysis of the deposited data

How the results depend on the processing

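Of 96 alternative values over 10 results, 80 kept the call: a difference kept its direction and its side of an unadjusted p of 0.05, whatever its size, a share stayed inside the 95% interval of the reported one, and the number of members stayed within 1.5 times. The 80 include the values without replicate 1, which could hardly change because the rule does not use that list. Ranges for leaving out 1 replicate therefore have the reported value, or nearly that value, as an end. The number of members, 6598, was 2715 with the replicate 2 list cut to the length of the H2087 list, 1224 without replicate 2, 1179 with both H3122 replicates required and 4666 with all scores at 100 or more, and leaving out 1 replicate gave 1224 to 6598. The FOXA1 share, 44.8%, was 51.0% with all scores at 100 or more, 35.0% with FOXA1 scores at 100 or more, 65.7% with lists of equal length, 56.9% without replicate 2 and 59.6% with both replicates (44.8 to 56.9% leaving out 1). The replicate 1 share, 17.9%, was 7.61% at scores of 100 or more and 33.6% with lists of equal length. The cut at 100 also applied to the replicate 1 list, whose median score was 73.3, so it removed most replicate 1 peaks itself. It applied to the H1819 list as well, so regions with a weaker H1819 peak could enter the set. The FOXA1 difference from regions in all 3 lines, 0.33 points, passed the threshold at 11.5 points within score deciles and 9.84 points with lists of equal length, and turned to −0.0575 points at scores of 100 or more and −1.35 points with FOXA1 scores at 100 or more (0.33 to 3.63 leaving out 1 replicate). The FOXA1 difference from regions in neither other line, −3.28 points, was −12.5 points within score deciles, −13.3 within width deciles, −9.90 with lists of equal length, −6.52 at scores of 100 or more and −4.34 with both replicates required, and it turned to 12.0 points without replicate 2 (−3.28 to 12.0 leaving out 1 replicate). The replicate 1 difference from those regions, 9.35 points, was 3.95 within score deciles and 4.18 at scores of 100 or more. The replicate 1 difference from regions shared with H1819, −3.75 points, turned to 0.256 points within score deciles. The cause was not tested in any of these. Leaving out 1 replicate gave −10.6 to −9.47 points for the FOXA1 difference and 10.5 to 12.5 points for the light band difference from regions shared with H1819, and 8.25 to 13.8 points for the light band difference from regions in neither other line. Alternatives on promoters and motifs were not run. No paired analysis was possible because H2087 and H1819 had 1 NKX2-1 library each and the tests are over regions of single lists. Absence from a list depends on its score cut-off and on read depth, which is unknown.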

Other observations

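Members fell into 4 groups by the H3122 lists that did not decide which regions were kept, although replicate 1 peaks entered the merging. Neither a replicate 1 nor a FOXA1 peak was present at 3167 members (48.0%), FOXA1 alone at 2252 (34.1%), replicate 1 alone at 476 (7.21%) and both at 703 (10.7%). The median H2087 scores of these groups were 143.6, 187.8, 207.0 and 333.3, and their median widths were 835, 911, 945 and 1100 bp. Replicate 1 peaks were present at 23.8% of members with FOXA1 and 13.1% of those without, a difference of 10.7 points (8.84 to 12.6, Fisher's exact test, adjusted p = 4.48e-29). Within deciles of replicate 2 score the difference was −2.96 points (−4.73 to −1.19). This comparison was chosen after the data had been seen.

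The 1 Mb windows with most members, 16 or more, were chosen by that count, and no test between them was run. A FOXA1 peak was present at 4 of 18 members on chromosome 22 between 35 and 36 Mb. On chromosome 12 it was present at 1 of 16 between 6 and 7 Mb and at 11 of 16 between 74 and 75 Mb. On chromosome 19 it was present at 5 of 16 between 50 and 51 Mb, 3 of 16 between 52 and 53 Mb and 0 of 16 between 53 and 54 Mb. The share over all members was 44.8%. Over the members of each chromosome it was 27.2% on chromosome 22, 47.5% on chromosome 12 and 22.3% on chromosome 19.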
